A study of Mus musculus with 29 samples.

Results

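Kupffer cells are the resident macrophages of the liver sinusoids, and 10 genes by which they are recognised were followed through mouse livers and liver tumours: Clec4f, Vsig4, Cd163, Fcna, Timd4, Marco, Cd5l, Adgre1, C1qa and C1qc. They were chosen by name and are 10 of the 22187 gene IDs in the expression table, and each was found there under 1 ID. The values are CPM (counts scaled so that each library sums to 1000000), in 29 RNA sequencing libraries from whole tissue. All 8 groups share the C57BL/6 background and an injection of the liver carcinogen diethylnitrosamine (25 mg/kg at 2 weeks of age), followed by 18 weeks of feeding. The groups cross tissue (non-tumour liver or tumour), diet (HFD_alcohol, called alcohol here, or HFD) and genotype label (IL17RA-/- or WT). IL17RA is the receptor subunit through which interleukin 17A signals. Among non-tumour livers, 5 IL17RA-/- and 5 WT had received alcohol, and HFD had been given to 3 per genotype label. Among tumours, 4 IL17RA-/- and 3 WT came from alcohol feeding, and 3 per label from HFD. The series text describes liquid ethanol feeding and pair-feeding where the labels say HFD_alcohol and HFD, and the labels were used. Nothing in the labels ties libraries to animals, so p-values measure the spread between libraries, which may be partly technical.

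Kupffer cells seed the liver before birth and renew themselves there, held in place by signals from the sinusoidal endothelium, stellate cells and hepatocytes around them. They take up bacteria, dying cells and worn red cells from the blood through scavenger, lectin and complement receptors. When they are lost, monocytes from the blood can fill the niche, and such recruits carry the general macrophage genes before they gain some of the resident ones. Clec4f (a C-type lectin) and Timd4 (a receptor for phosphatidylserine on dying cells) are regarded as markers of residents, Timd4 being gained late, whereas Adgre1 (which encodes F4/80) and the C1q genes are made by macrophages of many kinds.

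Libraries held between 3213695 and 9660583 counts, as recovered from the steps in the CPM values. A floor of 3 counts therefore meant 0.311 to 0.934 CPM, depending on the library. Il17ra itself was not lower in the libraries labelled IL17RA-/-. In non-tumour liver it ranged from 15.9 to 37 CPM there and from 16.1 to 42.5 in WT, and in tumours from 42.4 to 62.9 against 22.9 to 48.5. Mug2, 1.52 Mb from Il17ra, ran from 19.9 to 209 CPM in IL17RA-/- tumours and from 1009 to 2346 in WT tumours. Klrb1b, 8.33 Mb away, ran from 0 to 0.416 and from 0.928 to 106 CPM in those tumours. In non-tumour liver both genes had high and low libraries under either label, so every direction by genotype below rests on the label alone. Tumour markers (Afp, Gpc3, Prom1, Igf2 and Golm1, summed) stood at 258 to 1039 CPM in tumours. Of the non-tumour libraries, IL17RA-/- HFD replicate 3 held 468 CPM and WT HFD replicate 1 held 222, against 6.83 to 86.8 in the other 14.

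Upstream sequences were looked at because the members move together between tissues. RefSeq (GRCm38.p6) gave the 300 bases around the start, 250 before and 50 after, for 8 of the 10 members; Adgre1 and C1qa had no entry. The 4 shown are 3 members without overlap between tissues (Clec4f, Cd163 and Fcna) and C1qc, whose tissue difference was among the smallest. Capitals mark GAGGAA, the core bound by the myeloid factor PU.1, on either strand (TTCCTC in reverse).
Clec4f, chr6:83656067-83656366, minus strand: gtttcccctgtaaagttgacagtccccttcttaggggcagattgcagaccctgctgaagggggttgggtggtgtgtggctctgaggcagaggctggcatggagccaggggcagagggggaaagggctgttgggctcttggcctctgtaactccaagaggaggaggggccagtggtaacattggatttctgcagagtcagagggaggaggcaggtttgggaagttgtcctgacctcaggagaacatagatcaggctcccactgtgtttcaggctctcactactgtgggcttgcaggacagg
Cd163, chr6:124304401-124304700, plus strand: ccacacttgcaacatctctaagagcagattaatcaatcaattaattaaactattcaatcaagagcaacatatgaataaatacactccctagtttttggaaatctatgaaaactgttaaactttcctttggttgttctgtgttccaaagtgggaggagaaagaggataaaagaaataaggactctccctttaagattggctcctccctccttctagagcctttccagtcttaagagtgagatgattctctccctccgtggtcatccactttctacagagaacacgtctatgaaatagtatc
Fcna, chr2:25627925-25628224, minus strand: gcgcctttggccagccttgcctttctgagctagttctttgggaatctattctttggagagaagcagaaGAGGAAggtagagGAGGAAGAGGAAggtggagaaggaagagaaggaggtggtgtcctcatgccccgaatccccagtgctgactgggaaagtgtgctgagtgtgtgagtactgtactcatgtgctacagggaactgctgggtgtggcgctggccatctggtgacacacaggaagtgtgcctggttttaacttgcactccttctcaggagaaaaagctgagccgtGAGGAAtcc
C1qc, chr4:136892865-136893164, minus strand: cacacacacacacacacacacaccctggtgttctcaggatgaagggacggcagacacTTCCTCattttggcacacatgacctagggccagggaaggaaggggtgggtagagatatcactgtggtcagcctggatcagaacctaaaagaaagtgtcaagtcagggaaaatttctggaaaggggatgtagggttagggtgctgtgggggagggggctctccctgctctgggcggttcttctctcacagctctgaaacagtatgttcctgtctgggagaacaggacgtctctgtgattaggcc
GAGGAA was present in 5 of the 8 (Vsig4, Fcna, Marco, Cd5l and C1qc) and in 28.3% of all 32851 RefSeq windows of this length. Fcna held 4 matches, Vsig4 2, and the other 3 of these 1 each, while Clec4f, Cd163 and Timd4 held none. A match describes letters only.

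Tumours held less RNA of all 10 markers than non-tumour liver, and the size of the difference set the markers apart. Cd163, Marco, Timd4 and Clec4f were lowest relative to non-tumour liver, Vsig4 and Fcna followed, and Cd5l, Adgre1, C1qa and C1qc differed least. In a limma fit over all libraries, with the 4 diet and genotype strata weighted equally, 10 of 10 members were called lower at an adjusted p under 0.05, where 27% of the 13586 genes tested were called lower. The members' median log2 fold change was -1.83, against 0.09 over all genes tested. In whole tissue, fewer cells of a type and less RNA per cell cannot be told apart. All log2 fold changes were taken on log2(CPM + 1), where the added 1 shrinks differences of weakly expressed genes such as Timd4.

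**Figure D1:**
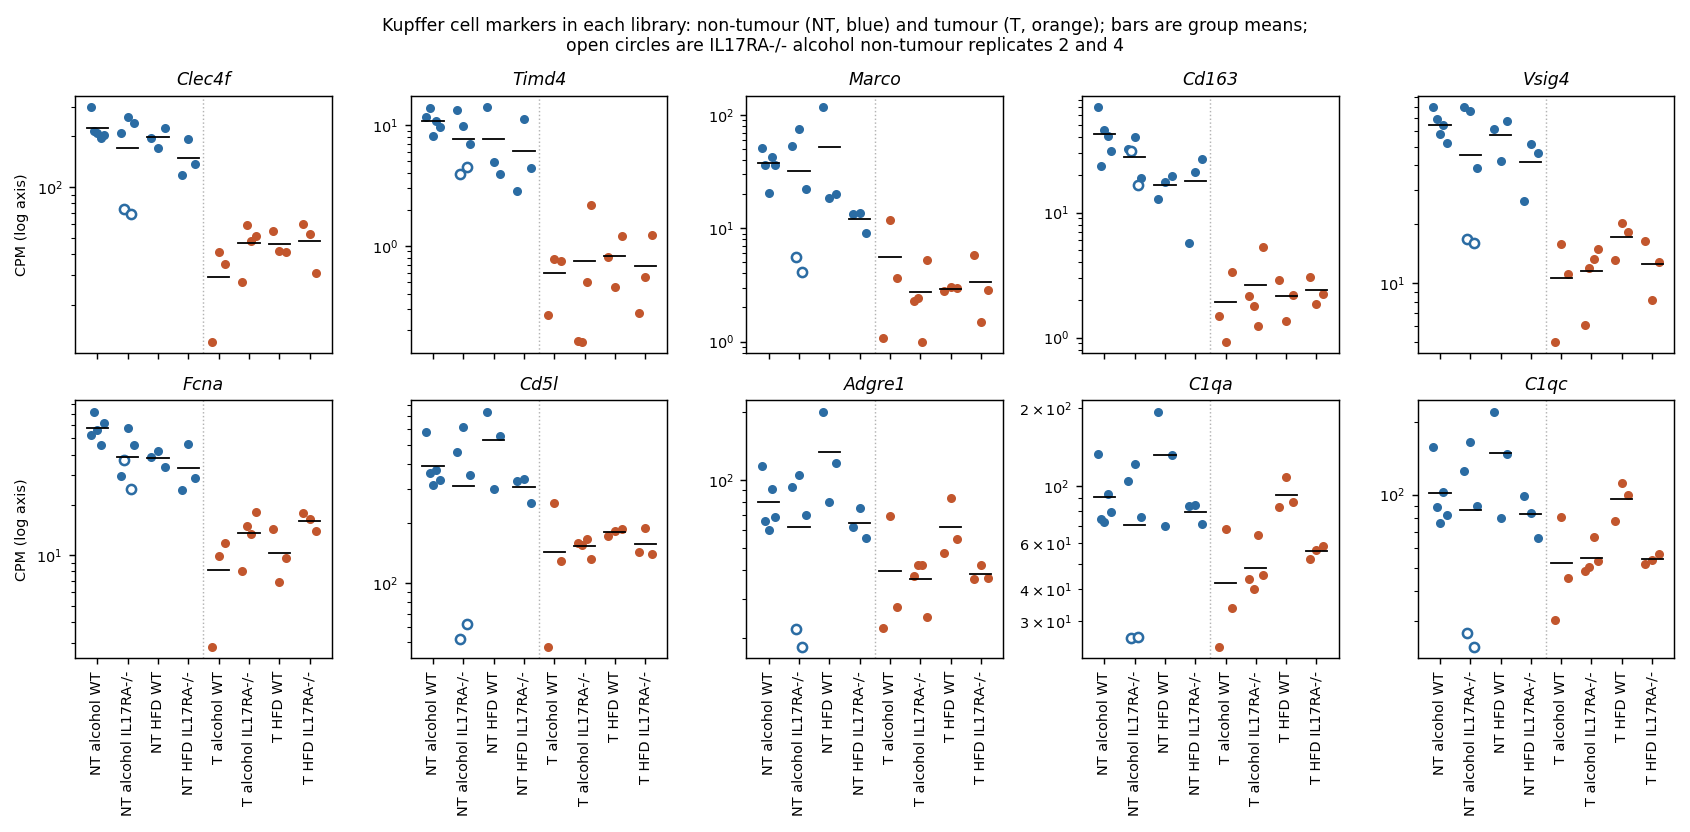
CPM of each marker (log axis) in every library, by group. Points are libraries, bars are group means, and open circles are the 2 non-tumour libraries (IL17RA-/- alcohol replicates 2 and 4) in which 7 of the 10 markers were below the other 14; all 13 tumours sit below all 16 non-tumour libraries for Clec4f, Timd4, Cd163 and Fcna.

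Clec4f (ENSMUSG00000014542, chromosome 6, 83644542 to 83656187, GRCm38), the lectin that in mouse liver is largely restricted to Kupffer cells, ran from 69.3 to 297 CPM with a median of 200 in the 16 non-tumour libraries. In the 13 tumours it ran from 12 to 59.9 with a median of 41.9. No tumour reached the lowest non-tumour library, and the log2 fold change was -2.11 ± 0.20 (SE; adjusted p = 2.4e-09). By group, WT alcohol non-tumour liver held 297, 215, 208, 195 and 204 CPM, and WT alcohol tumours 12, 40.8 and 35. IL17RA-/- alcohol non-tumour liver held 209, 73.9, 261, 69.3 and 239 CPM, and its tumours 27.3, 59.4, 48 and 51. On HFD, WT livers held 196, 171 and 225 CPM against 54.8, 41.9 and 40.9 in tumours, and IL17RA-/- livers held 117, 193 and 137 against 59.9, 52.8 and 30.9. Within each of the 4 strata the lowest liver lay above the highest tumour.

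Timd4 (ENSMUSG00000055546, chromosome 11, 46810800 to 46844332), the receptor by which resident macrophages bind dying cells, ran from 2.84 to 14 CPM with a median of 8.81 in non-tumour liver. In tumours it ran from 0.161 to 2.18 with a median of 0.558. These tumour values rest on 1 to 11 counts per library, 57 in all, and 4 of the 13 tumours held fewer than 3 counts. The tissues did not overlap, and the log2 fold change was -2.31 ± 0.21 (adjusted p = 7.3e-10). On the linear scale the mean of the group means was 8.06 CPM in non-tumour liver and 0.715 in tumours, an 11.3-fold difference. The tumour with the most Timd4 was IL17RA-/- alcohol replicate 7, the shallowest library, with 7 counts.

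Cd163 (ENSMUSG00000008845, chromosome 6, 124304656 to 124330527), the receptor that clears haemoglobin bound to haptoglobin, had the largest tissue difference of the 10. It ran from 5.68 to 69.5 CPM with a median of 25.3 in non-tumour liver, and from 0.928 to 5.29 with a median of 2.14 in tumours. The ranges came close at IL17RA-/- HFD non-tumour replicate 1 (5.68) and IL17RA-/- alcohol tumour replicate 7 (5.29) but did not overlap. The log2 fold change was -2.92 ± 0.21 (adjusted p = 1.7e-11), and the ratio of the means of the group means was 11.5. WT alcohol livers held 69.5, 23.7, 45.8, 41.1 and 31.2 CPM against 1.49, 0.928 and 3.33 in tumours, a 22.1-fold difference of means and the largest of any marker and stratum. In the other strata the fold was 10.6 (IL17RA-/- alcohol), 7.72 (WT HFD) and 7.51 (IL17RA-/- HFD).

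Marco (ENSMUSG00000026390, chromosome 1, 120474538 to 120505024), a scavenger receptor for bacteria and particles, was the most uneven marker between libraries. It ran from 4.08 to 117 CPM with a median of 21.3 in non-tumour liver, and from 0.997 to 11.9 with a median of 2.86 in tumours. The log2 fold change was -2.58 ± 0.37 (adjusted p = 1.6e-06), with the widest SE of the 10. The tissues overlapped: 3 tumours reached the lowest non-tumour value and 3 livers lay at or below the highest tumour, WT alcohol replicate 5. WT HFD liver held 117, 18.4 and 20 CPM, so its 17.8-fold ratio of means over its tumours (2.78, 3.02 and 2.94) rests largely on replicate 1, which also carried tumour markers. Without that library the log2 fold change in this stratum was -2.37 and its adjusted p was 0.053, against -3.22 and 0.0077 with it.

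Vsig4 (ENSMUSG00000044206, chromosome X, 96247203 to 96293438), the complement receptor that captures C3b-coated bacteria from blood, ran from 16 to 79.4 CPM with a median of 55.2 in non-tumour liver. In tumours it ran from 5.01 to 20.4 with a median of 13.1. The log2 fold change was -1.89 ± 0.22 (adjusted p = 6.7e-08). The overlap came from 2 livers, IL17RA-/- alcohol replicates 2 and 4 (16.7 and 16 CPM). Among the other 14 livers the lowest value was 26.3.

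Fcna (ENSMUSG00000026938, chromosome 2, 25624666 to 25628030) encodes ficolin A, a secreted lectin that starts the lectin pathway of complement. It ran from 24.7 to 71.7 CPM with a median of 43.8 in non-tumour liver, and from 2.84 to 18 with a median of 13.5 in tumours. No tumour reached a liver, and the log2 fold change was -1.77 ± 0.17 (adjusted p = 1.4e-09). The fold of group means was 7.03 in WT alcohol, 3.69 in WT HFD, 2.85 in IL17RA-/- alcohol and 2.07 in IL17RA-/- HFD.

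Without overlap between all 13 tumours and all 16 livers were 4 of the 10 markers, Clec4f, Cd163, Fcna and Timd4, where 3.3% of genes tested were lower in tumours in this way. Vsig4 joined them when the 2 low IL17RA-/- alcohol livers were left out, with 3.81% of genes lower in this way. That pair was picked for its low marker values and lay below the other 14 livers for Vsig4, so no weight is put on this change. No marker lay higher in every tumour, where 2.84% of genes did with all livers and 2.92% without that pair.

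Cd5l (ENSMUSG00000015854, chromosome 3, 87357881 to 87371073), a secreted scavenger protein of tissue macrophages, was the most abundant marker per length of exon in both tissues. It ran from 52.3 to 732 CPM with a median of 344 in non-tumour liver, and from 47.6 to 254 with a median of 159 in tumours. The log2 fold change was -1.12 ± 0.30 (adjusted p = 0.0023). The overlap rests on few libraries: 12 of 13 tumours lay at or above the lowest liver, but only 3 livers lay at or below the highest tumour.

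Adgre1 (ENSMUSG00000004730, chromosome 17, 57358691 to 57483527) ran from 18.4 to 199 CPM with a median of 72.7 in non-tumour liver and from 22.3 to 83.4 with a median of 42 in tumours. Its log2 fold change was -0.83 ± 0.23 (adjusted p = 0.0031). C1qa (ENSMUSG00000036887, chromosome 4, 136895917 to 136898803) and C1qc (ENSMUSG00000036896, chromosome 4, 136889804 to 136893065) encode chains of C1q, the subunit that starts the classical complement pathway. C1qa ran from 25.9 to 192 CPM (median 81.2) in livers and from 23.9 to 108 (median 56.4) in tumours, a log2 fold change of -0.59 ± 0.21 (adjusted p = 0.018). C1qc ran from 23.6 to 219 CPM (median 89.1) in livers and from 30.3 to 111 (median 53.9) in tumours, a log2 fold change of -0.60 ± 0.24 (adjusted p = 0.030). Their tissues overlapped broadly, with 12 livers for C1qa and 11 for C1qc at or below the highest tumour. C1qb, which lies beside them in the same 18.7 kb cluster and is not a member, had -0.55 ± 0.25 and missed the threshold (adjusted p = 0.055). These calls are the least firm. Without 4 libraries that an earlier look at these data had doubted (WT HFD tumour 4, IL17RA-/- alcohol tumour 5, IL17RA-/- HFD liver 3 and WT HFD liver 1), C1qa stood at -0.49 (adjusted p = 0.088) and C1qc at -0.51 (0.113). C1qc alone also lost its call without WT alcohol tumour 4, WT HFD tumour 4, IL17RA-/- HFD liver 1 or WT HFD liver 1, at adjusted p = 0.051 to 0.066.

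Per kilobase of exon the order of the markers differed little between tissues. In non-tumour liver Cd5l stood at 188 CPM per kb, C1qa at 89.3, Clec4f at 74.9, C1qc at 54.3, Vsig4 at 35.1 and Fcna at 30.5. Adgre1 (26.2), Marco (17.3), Cd163 (4.79) and Timd4 (3.71) followed. In tumours Cd5l (78 CPM per kb) and C1qa (57.3) kept the first places, C1qc (33.3) stood above Clec4f (17.1), and Adgre1 (13.7) stood above Fcna (8.77) and Vsig4 (8.76). Marco, Cd163 and Timd4 stayed last, at 1.90, 0.415 and 0.329 CPM per kb.

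The tissue difference was examined in each stratum, to see whether it was present under each diet and genotype label. All 10 markers were negative in each of the 4 strata, with member medians of -2.72 in WT alcohol, -1.75 in WT HFD, -1.54 in IL17RA-/- alcohol and -1.3 in IL17RA-/- HFD. Of all genes tested, 49%, 42.9%, 44.3% and 41% were negative in the same order. In WT alcohol 9 markers were called lower, all but C1qc, where 19.2% of genes tested were. In WT HFD 6 were called lower against 7.61% of genes, in IL17RA-/- alcohol 6 against 18.1%, and in IL17RA-/- HFD 5 against 16.5%. Clec4f, Vsig4, Cd163, Fcna and Timd4 were called in all 4 strata. Marco missed the threshold in IL17RA-/- HFD alone (-1.67 ± 0.80, adjusted p = 0.099).

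**Figure D2:**
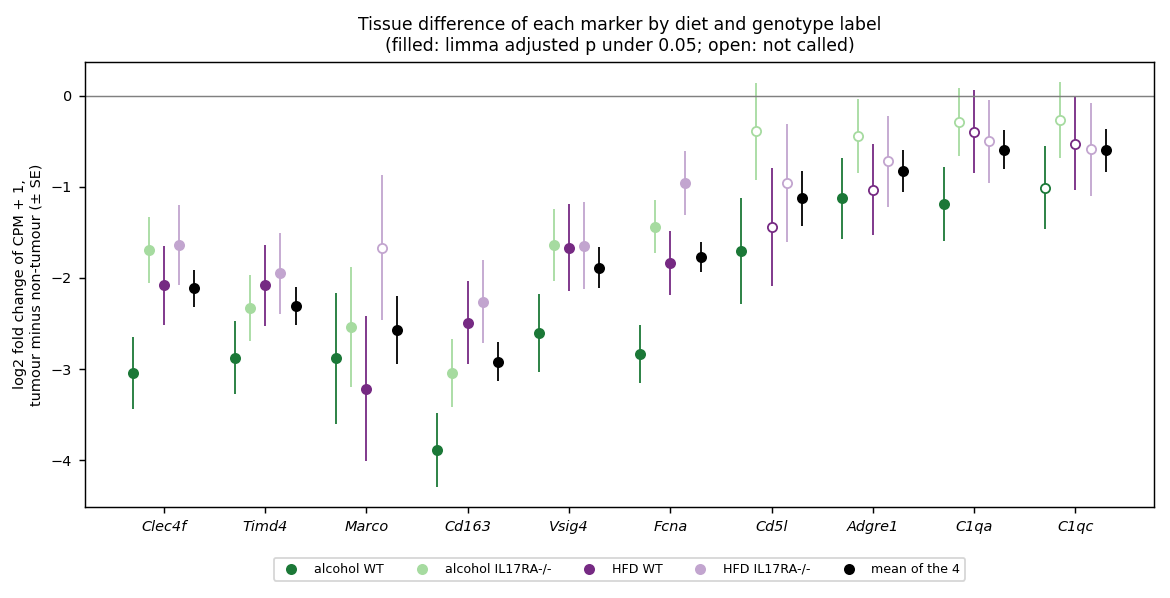
Log2 fold change of CPM + 1, tumour minus non-tumour, for each marker in each stratum and as their mean. Points are limma estimates, bars are SE, and filled points passed an adjusted p under 0.05; all estimates lie below 0, from -3.89 for Cd163 in WT alcohol to -0.27 for C1qc in IL17RA-/- alcohol.

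Counting markers without overlap ordered the strata differently, with IL17RA-/- HFD going from the fewest markers to the most. In WT alcohol 8 markers had every tumour below every liver (20% of genes tested), and in WT HFD 7 did (10.3%). In IL17RA-/- alcohol 5 did (14.5%), and in IL17RA-/- HFD all 10 did (22.3%). No marker had every tumour above every liver, where 17%, 12.7%, 15.1% and 32.4% of genes did in these strata in the same order. In IL17RA-/- HFD, a fit on its own 6 libraries called all 10 markers lower, against 5 in the fit with the spread of all groups, and 17.9% of genes tested lower in place of 16.5%. In IL17RA-/- alcohol, leaving out livers 2 and 4 gave 10 called in place of 6 and a median of -2.0, with 17.6% of genes lower; these livers were picked for their low marker values. In WT alcohol, Cd5l, Adgre1 and C1qa lost their calls without tumour replicate 4 (adjusted p = 0.20, 0.23 and 0.16), in which Clec4f, Vsig4, Fcna, Cd5l, Adgre1, C1qa and C1qc were lowest of all tumours. Tumour replicate 4 was not the only such library. The same markers lost their calls without liver replicate 1 (0.051, 0.10 and 0.059) or tumour replicate 6 (0.051, 0.17 and 0.086). Adgre1, at 0.0497 with all libraries, also did so without liver replicate 2, 4 or 5 (0.057, 0.085 and 0.059). In the other direction, C1qc gained a call without tumour replicate 5 (0.043).

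The differences between strata did not pass the threshold. The tissue difference in IL17RA-/- minus that in WT was positive for all 10 markers (median 0.52). Over all genes tested the median was 0.06, and 40.3% were negative. The smallest p was that of Fcna, at 1.14 ± 0.33 (adjusted p = 0.33). Clec4f had 0.90 ± 0.41 (adjusted p = 0.51). No member and 0% of genes tested were called, although 2 members and 1266 genes were under 0.05 before adjustment, and limma-voom on the recovered counts also made 0 calls. The tissue difference on alcohol minus that on HFD was -1.09 ± 0.42 for Cd163 and -0.74 ± 0.33 for Fcna, each with adjusted p = 1.0. Here 2 members and 499 genes had an unadjusted p under 0.05, and both tools again called 0. Over the alternatives tried, the first Fcna value ranged from 0.87 to 1.3 and its adjusted p from 0.13 to 0.60.

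Whether the markers fell beyond macrophages as a whole was asked with genes that macrophages of any origin share: Csf1r, Cd68, Fcer1g, Tyrobp, Aif1, Fcgr1, Laptm5 and Mpeg1. Their mean log2(CPM + 1) ran from 3.19 to 6.23 (median 4.97) in livers and from 3.93 to 5.77 (median 4.56) in tumours. Of these 8 genes, 1 rose in tumours (Mpeg1, a pore-forming protein of phagocytes, 0.88 ± 0.20, adjusted p = 0.00045, where 36.6% of genes tested rose) and 2 fell. Tyrobp, an adaptor of activating receptors, changed by -0.70 ± 0.27 (adjusted p = 0.029) and Csf1r, the receptor for the survival factor CSF1, by -0.65 ± 0.21 (adjusted p = 0.010). The other 5 were not called.

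Relative to the mean of these genes in each library, 8 of the 10 markers were still called lower in tumours, where 7.15% of genes tested were. Cd163 stood at -2.68 ± 0.29, Marco at -2.34 ± 0.24, Timd4 at -2.07 ± 0.24 and Clec4f at -1.87 ± 0.21. Vsig4 stood at -1.65 ± 0.21, Fcna at -1.53 ± 0.25, Cd5l at -0.88 ± 0.20 and Adgre1 at -0.59 ± 0.18, with adjusted p-values from 3.4e-10 for Marco to 0.0075 for Adgre1. C1qa (-0.35 ± 0.17, adjusted p = 0.10) and C1qc (-0.36 ± 0.17, adjusted p = 0.099) were not called. On this scale Marco ran from -1.36 to 0.65 in livers and from -3.86 to -1.53 in tumours, and the other markers overlapped between tissues. The share of all genes without overlap on this scale was not counted, so no weight is put on Marco here. With Csf1r as the only reference, 7 markers were called lower against 4.25% of genes: Adgre1 (-0.18, adjusted p = 0.34) lost its call, and C1qa and C1qc turned to 0.06 and 0.05. With livers 2 and 4 of IL17RA-/- alcohol left out, all 10 were called lower against 7.07% of genes, C1qa at -0.33 and C1qc at -0.37, while the genes called either way rose from 5261 to 8905. The C1qa and C1qc values thus hardly moved. These livers were picked for their low marker values, so the added calls cannot answer the question.

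**Figure D3:**
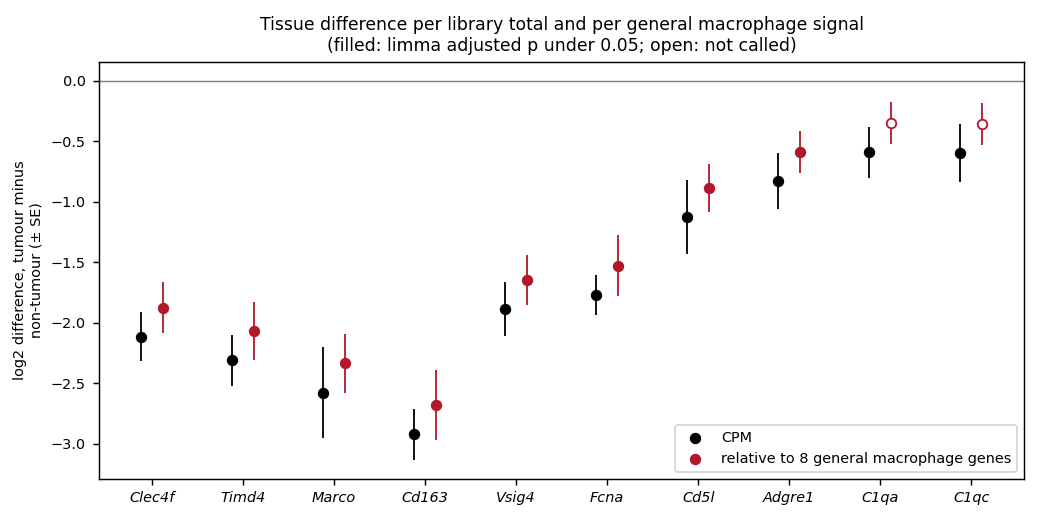
Mean tissue difference of each marker on log2(CPM + 1), in black, and after subtracting the library mean of 8 general macrophage genes, in red. Bars are SE and open points were not called; the red values are nearer 0 for every marker, and C1qa and C1qc are the 2 that lose their call.

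Genes around the markers were followed as lists, each described by its calls in the same mean tissue contrast, where 27% of all genes tested were called lower and 36.6% higher. Of 18 other genes enriched in resident liver macrophages, 10 fell (against 27% of all genes), 0 rose and 8 were not called, with a median of -0.66. The largest falls were those of C6 (-2.49 ± 0.26), a terminal complement component, and Hpgd (-1.96 ± 0.15), which breaks down prostaglandins. In IL17RA-/- alcohol livers 2 and 4, described below as low in macrophage genes, 13 of the 18 lay below the other 14 livers. C6 and Hpgd did not. C6 stood at 488 and 379 CPM against 252 to 295 in the rest of that group, and Hpgd at 72.4 and 101 against 116 to 142. The cells that made this RNA were not tested. Cdh5, the endothelial cadherin, was the only one above 0 (0.19 ± 0.10, adjusted p = 0.11). Of 12 transcription factors of Kupffer cell identity, 2 fell, 2 rose and 8 were not called, with a median of -0.19; both counts are smaller shares than the 27% and 36.6% over all genes. Nr1h3, which encodes the sterol-sensing nuclear receptor LXR alpha, fell by 0.36 on the log2 scale (SE 0.05), and Rxra, its nuclear receptor partner, by 0.37 (SE 0.08). In the same low livers 5 of the 12 factors lay below the other 14 livers, Nr1h3 and Rxra not among them. Id1, an inhibitor of differentiation induced by BMP signals, rose by 1.82 ± 0.20, and Rbpj, the effector of Notch, by 0.31 ± 0.09.

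Of 17 niche signals and receptors, 8 rose, 4 fell and 5 were not called, against 36.6% and 27% of all genes. The receptor Tgfbr2 (1.17 ± 0.15) and the Notch ligand Dll4 (0.90 ± 0.14) rose most. Gdf2, which encodes BMP9 from stellate cells, fell by 1.58 (SE 0.16), and Csf1r by 0.65 as above. Of 12 markers of monocyte-derived and lipid-associated macrophages, 5 rose, 0 fell and 7 were not called, with a median of 0.58; the share that rose is near the 36.6% of all genes. Spp1 (osteopontin) rose by 2.56 ± 0.30, from a median of 44.1 CPM in livers to 245 in tumours, and Cd9, a tetraspanin, by 1.71 ± 0.19, from 24.9 to 81.9. Both are also made by other liver and tumour cells. Clec7a (-0.27 ± 0.36) and Trem2 (-0.17 ± 0.30) of that list were not called. Summed, the list held 69 to 577 CPM in livers and 250 to 2144 in tumours.

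Markers of the other cell types were read beside these results and against the same shares of all genes, 27% lower and 36.6% higher. Sinusoidal endothelium held 625 to 940 CPM summed in livers and 416 to 886 in tumours, with 2 of 11 genes lower (Clec4g -0.87 ± 0.15 and Mrc1 -0.44 ± 0.12), 1 higher (Stab1 0.31 ± 0.09) and 8 not called. Stellate cells had 6 of 9 genes lower (Lrat -1.67 ± 0.22 and Dcn -1.36 ± 0.23 the lowest), 2 higher (Reln 0.95 ± 0.20 and Pdgfrb 0.51 ± 0.19) and 1 not called, at 421 to 1142 CPM against 285 to 1208. Hepatocyte genes rose in sum, from 53530 to 85589 CPM in livers to 70875 to 167584 in tumours. Alb (1.4 ± 0.19) and Apoa1 (1.66 ± 0.12) were higher, 6 of the 9 were lower, led by Cyp2e1 (-3.93 ± 0.23) and Ass1 (-1.98 ± 0.19), and 1 was not called. Lymphocyte genes were at 2.95 to 17.8 CPM summed in livers and 3.74 to 46.1 in tumours, with 2 of 9 higher (Cd3e 0.51 ± 0.19 and Klrd1 0.42 ± 0.14), a smaller share than over all genes. Neutrophil genes were at 0.558 to 19.9 and 3.52 to 24.5 CPM, with 0 of 4 tested genes called and Ly6g at 0 in every liver. The 5 tumour markers all rose, led by Gpc3 (4.59 ± 0.53) and Afp (4.54 ± 0.58). The part of these cell types in the marker differences was not tested.

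**Figure D4:**
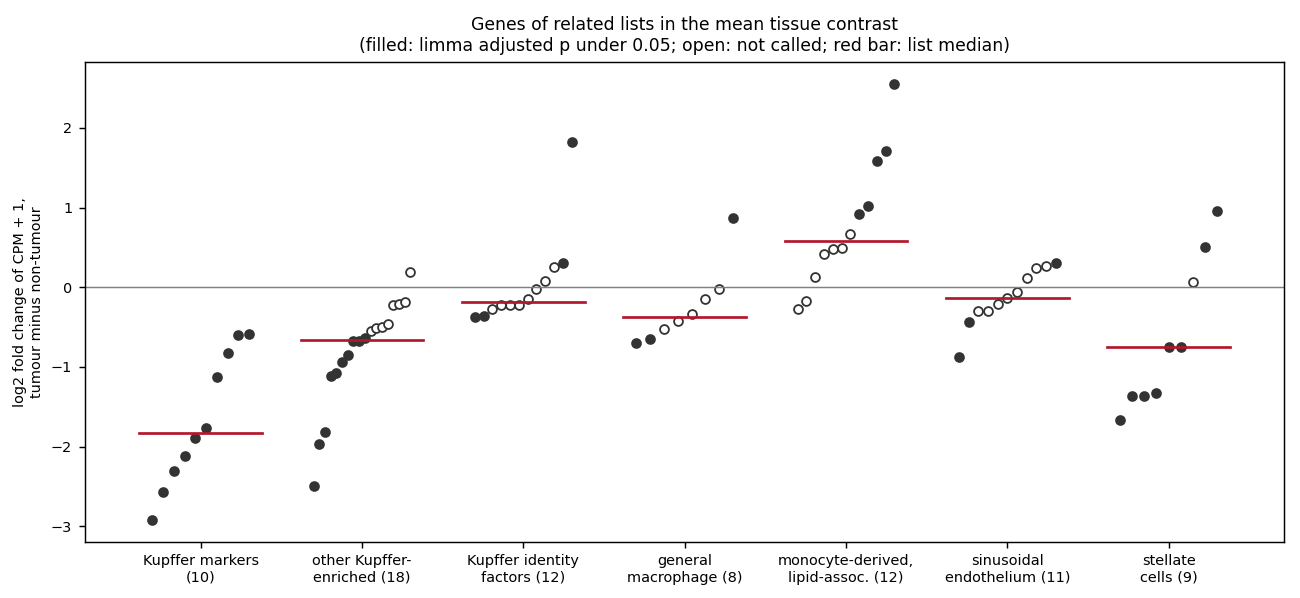
Log2 fold change of CPM + 1, tumour minus non-tumour, of every tested gene of 7 lists. Points are genes, filled where called, and red bars are list medians. The lowest medians are -1.83 for the Kupffer markers, -0.755 for stellate cell genes and -0.66 for other Kupffer-enriched genes. General macrophage genes follow at -0.38, Kupffer identity factors at -0.19 and sinusoidal endothelium at -0.14. The highest is 0.58, for monocyte-derived and lipid-associated macrophage genes.

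Of the 8 groups, 2 liver groups were the highest, each for 5 of the 10 markers. Clec4f, Vsig4, Cd163, Fcna and Timd4 were highest in WT alcohol liver, at 224 ± 41.7, 64.6 ± 10.4, 42.3 ± 17.5, 57.6 ± 9.74 and 10.8 ± 2.22 CPM (mean ± SD, n = 5). Marco, Cd5l, Adgre1, C1qa and C1qc were highest in WT HFD liver, at 51.8 ± 56.5, 528 ± 218, 133 ± 60.5, 131 ± 61.3 and 149 ± 69.1 CPM (n = 3). WT alcohol tumours were lowest for 8 markers, and IL17RA-/- alcohol tumours for Marco (2.75 ± 1.81, n = 4) and Adgre1 (36.7 ± 8.18, n = 4). For 7 markers the 4 liver groups took the first 4 places. For Adgre1, C1qa and C1qc a tumour group, WT HFD, stood among the livers, C1qa at 92.2 ± 13.4 CPM (n = 3) in second place. Most neighbours in these orders did not differ beyond the larger of their SDs: none did for Adgre1 and C1qa, and 1 or 2 of 7 did for the others. For Clec4f, Vsig4, Cd163, Fcna, Timd4, Marco and Cd5l the step from the lowest liver group to the highest tumour group was beyond it. Other steps beyond it were Clec4f from WT HFD (45.8 ± 7.74) to WT alcohol tumours (29.3 ± 15.2), Vsig4 from WT HFD (17.2 ± 3.74) to IL17RA-/- HFD tumours (12.5 ± 4.17), Fcna from WT alcohol to IL17RA-/- alcohol liver (57.6 ± 9.74 and 38.9 ± 12.9), and C1qc from IL17RA-/- HFD liver (82.9 ± 16.1) to IL17RA-/- alcohol tumours (54.7 ± 8.13).

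The genotype label was compared within each tissue and diet. No marker was called in any of the 4 comparisons. In non-tumour alcohol liver all 10 were lower in IL17RA-/- (median -0.59, where the gene median was 0.01 and 45.7% of all genes tested were negative). Fcna, at 29.7, 37, 57.3, 25 and 45.7 CPM against 52.7, 71.7, 56.2, 45.8 and 61.5 in WT, had the smallest p (-0.60 ± 0.21, adjusted p = 1.0), and Vsig4 followed (-0.80 ± 0.39, adjusted p = 1.0). No group pair was without overlap, where 0.0857% of genes tested were lower and 0.335% higher in that way. Of 12829 genes tested 0% were called, 330 had an unadjusted p under 0.05 as did 1 member, while limma-voom made 0 calls. The member median was 0.13 without IL17RA-/- replicates 2 and 4.

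In non-tumour HFD liver all 10 were lower in IL17RA-/- as well (median -0.54), in a comparison where 73.2% of all genes were negative and the gene median was -0.12. Marco, at 13.4, 13.5 and 9.01 CPM against 117, 18.4 and 20 in WT, had -1.51 ± 0.88 (adjusted p = 0.90). Adgre1, at 62.1, 75.4 and 55.4 against 199, 80.1 and 119, had -0.95 ± 0.55 (adjusted p = 0.90). These 2 did not overlap between labels, where 8.6% of genes tested were lower and 1.09% higher without overlap. By limma 0% of genes were called, 461 genes and no member had an unadjusted p under 0.05, while limma-voom made 0 calls. Without WT replicate 1 Marco stood at -0.66, the value nearest 0 of all those that left out 1 library.

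In tumours on alcohol 9 of 10 markers were higher in IL17RA-/- (median 0.22, gene median 0.09), in a comparison where only 32.4% of all genes tested were negative. Fcna, at 8.06, 15, 13.5 and 18 CPM against 2.84, 9.89 and 11.8, had 0.80 ± 0.38 (adjusted p = 1.0), and Clec4f had 0.76 ± 0.37 (adjusted p = 1.0). The label groups overlapped for both, as they did for all 10 markers, where 3.29% of genes tested were higher and 0.935% lower without overlap. By limma 0% of genes were called, 261 genes and no member had an unadjusted p under 0.05, while limma-voom made 0 calls. Without WT replicate 4, the tumour with the least Clec4f and Fcna, the member median was -0.15. Cd163, the member nearest to Il17ra on chromosome 6 (3.82 Mb away, against 36.8 Mb for Clec4f), showed 0.28 ± 0.37 in these tumours and 0.12 ± 0.39 in those on HFD.

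In tumours on HFD 6 of the 10 markers were lower in IL17RA-/- and 4 higher (median -0.17, gene median -0.09), where 57.9% of all genes tested were negative. C1qc stood at 51.6, 53.9 and 57 CPM against 77.5, 111 and 99.4 in WT (-0.80 ± 0.27, adjusted p = 0.12), and C1qa at 52.4, 56.4 and 58.6 against 82.7, 108 and 86.4 (-0.71 ± 0.29, adjusted p = 0.18). These and Adgre1 did not overlap between labels, where 16.5% of genes tested were lower and 8.15% higher in that way. None of the 10 passed, while 1.61% of the 13269 genes tested were called; 2 members and 2986 genes had an unadjusted p under 0.05. Beside this, the summed general macrophage genes stood at 586 to 673 CPM in these IL17RA-/- tumours and at 776 to 1270 in WT. The monocyte-derived and lipid-associated list, whose sum includes Spp1 and Cd9, stood at 454 to 577 and 836 to 2144. The part of both lists in the C1q and Adgre1 values was not tested. Fcna went the other way, at 17.9, 16.4 and 13.9 CPM against 14.4, 6.95 and 9.6. The number of genes called was itself unstable here, at 213 with all libraries, 0 without IL17RA-/- replicate 4 or 6 and 1174 without WT replicate 5.

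Diet was compared in the same way, and again no marker was called. In WT liver Cd163 was higher on alcohol, at 69.5, 23.7, 45.8, 41.1 and 31.2 CPM against 12.7, 17.5 and 19.4 on HFD (1.23 ± 0.42, adjusted p = 0.88). Fcna was at 52.7, 71.7, 56.2, 45.8 and 61.5 CPM against 38.5, 41.9 and 33.7 (0.57 ± 0.24, adjusted p = 0.88). These 2 markers had every alcohol liver above every HFD liver, where 0.577% of genes tested did and 2.57% had every one below. By limma 0% of genes were called, 541 genes and these 2 members had an unadjusted p under 0.05, while limma-voom made 0 calls. Over the alternatives the Cd163 value ranged from 1.03 to 1.46 and its adjusted p from 0.44 to 1.0. C1qa, C1qc, Adgre1 and Cd5l leaned the other way (-0.37 to -0.66), with WT HFD replicate 1 the highest library of all 29 for each of them.

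In IL17RA-/- liver the 2 markers with the smallest p were Cd163 (0.77 ± 0.42, adjusted p = 0.87) and C1qa (-0.44 ± 0.46, adjusted p = 0.95), and the member median was -0.06. All 10 markers overlapped between diets, where 3.53% of genes tested were higher on alcohol and 0.39% lower without overlap. Without alcohol replicates 2 and 4 the median was 0.61 and C1qa stood at 0.31. By limma 0% of genes were called, 745 genes and no member had an unadjusted p under 0.05, while limma-voom made 0 calls. In WT tumours 9 of 10 markers were lower on alcohol (median -0.69, gene median -0.17), where 68% of all genes tested were negative. C1qa stood at 23.9, 68.2 and 33.8 CPM against 82.7, 108 and 86.4 on HFD (-1.24 ± 0.29, adjusted p = 0.17), without overlap. C1qc stood at 30.3, 81.2 and 45.5 CPM against 77.5, 111 and 99.4 (-0.96 ± 0.27, adjusted p = 0.19). Clec4f was the other marker without overlap, and 12.1% of genes tested were lower and 3.16% higher in that way, while 0.00754% were called; 3 members and 2126 genes were under 0.05 before adjustment. Without WT alcohol tumour 5 both C1q genes were called (adjusted p = 0.014 and 0.029), where 0.386% of genes were called lower. In IL17RA-/- tumours the largest difference was -0.26 ± 0.38 for Fcna (adjusted p = 1.0), followed by C1qa at -0.23 ± 0.27 (adjusted p = 1.0). All 10 overlapped there too, where 3.62% of genes tested were higher and 2.78% lower without overlap. By limma 0% of genes were called there, 293 genes and no member had an unadjusted p under 0.05, while limma-voom made 0 calls.

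Low levels of macrophage genes of several kinds, the Kupffer markers among them, and of some stellate and sinusoidal genes came together in 2 non-tumour libraries of 1 group. IL17RA-/- alcohol replicates 2 and 4 lay below the other 14 livers for 7 of the 10 markers, where 12% of 13586 genes did. So did all 8 general macrophage genes, 13 of the 18 other Kupffer-enriched genes and 8 of the 12 monocyte-derived and lipid-associated macrophage genes. The low levels were not limited to macrophage lists. Below the other 14 as well were 4 of 9 stellate genes, 4 of 11 sinusoidal genes and 8 of 17 niche signals. Of lymphocyte genes 1 of 9 was, of neutrophil genes 1 of 6, and of hepatocyte genes 0 of 9. The sum of the 12 monocyte-derived and lipid-associated genes was 69 to 76.8 CPM in the pair and 90.3 to 577 in the other 14. Most of it in the pair came from Spp1 (22.6 and 30.2 CPM), Fabp5 (22.5 and 22.7) and Cd9 (17.3 and 12.1), none of them among those 8. Of the 8, Mmp12 stood at 0 and 1.27 CPM against 9.57 to 128 in the other 14, and Lgals3 at 2.79 and 1.97 against 13.9 to 84.3. Marco stood at 5.58 and 4.08 CPM against 22.3 to 75.3 in the other 3 libraries of the group, Cd5l at 52.3 and 62.1 against 351 to 613, and C1qc at 26.9 and 23.6 against 89.4 to 165. The mean of the other 3 was 10.4 times theirs for Marco, 8.31 for Cd5l, 5.01 for C1qc, 4.43 for Adgre1, 3.94 for Vsig4, 3.86 for C1qa and 3.30 for Clec4f. For Timd4 it was 2.38, and 3 HFD livers were at or below the higher of the pair.

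Cd163 and Fcna did not follow. Cd163 stood at 31 and 16.6 CPM against 19 to 39.9 in the other 3, a ratio of 1.28, and Fcna at 37 and 25 against 29.7 to 57.3, a ratio of 1.43. Among general macrophage genes Tyrobp was 7.58 times and Csf1r 3.58 times higher in the other 3. C6 stood higher in the pair, at 488 and 379 CPM against 252 to 295. Relative to the general macrophage genes, Cd163 (1.80 and 0.79) and Fcna (2.05 and 1.35) in the pair were high among livers, whose medians were -0.20 and 0.50. So were Timd4 (-0.90 and -0.89, liver median -1.73) and, less so, Clec4f (3.03 and 2.78, median 2.58). Marco and Cd5l lay below their medians in both libraries, and the remaining markers lay on either side. The depth of the pair, 7169454 and 7113476 counts, was within the range of the group's tissue. The 2 libraries were picked by their low marker values, so these numbers describe them and no test was made.

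**Figure D5:**
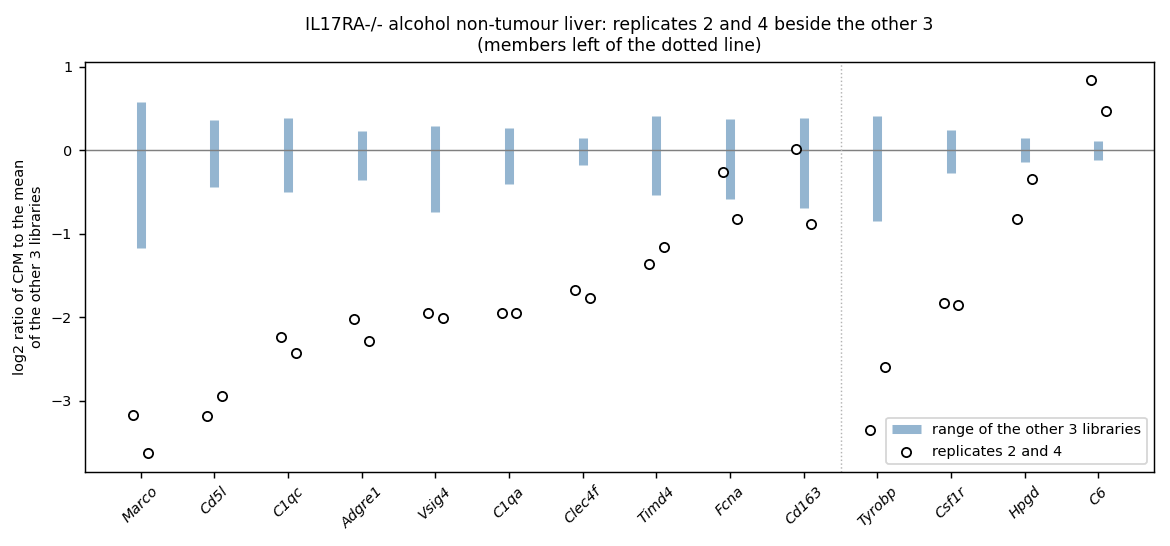
Log2 ratio of CPM in IL17RA-/- alcohol non-tumour replicates 2 and 4 (open circles) to the mean of the other 3 libraries of that group, with the range of those 3 as bars. Marco, Cd5l, C1qc, Adgre1, Vsig4, C1qa, Clec4f and Timd4 lie below the bars in both libraries, Fcna and Cd163 do so in 1 of the 2, and C6 lies above.

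Likeness between genes was measured as Pearson's r of log2(CPM + 1) and is given as a description, since libraries share tissue, diet and total counts. Over all 29 libraries the 45 pairs of markers had r from 0.35 to 0.98 with a median of 0.80. After removing group means the median was 0.71 among the 16 livers, 0.48 among the 14 without the low pair, and 0.49 among the 13 tumours. Cd163 was the least tied to the rest, with a median r of 0.24 with the other markers among the 16 livers and 0.07 among tumours. Fcna had 0.36 and 0.46, whereas Cd5l had 0.90 and 0.60.

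The 3 genes most like each marker over 29 libraries fell into kinds. For C1qc they were C1qb (0.99), C1qa (0.98) and the lysozyme gene Lyz2 (0.98), and for C1qa they were C1qb (0.98), C1qc (0.98) and the myeloid lectin Clec12a (0.96). For Adgre1 they were Csf1r (0.97), C1qc (0.96) and C1qb (0.95), and for Cd5l they were the properdin gene Cfp (0.98), Cd300ld (0.95) and Adgre1 (0.94). Clec4f was nearest to Vsig4 (0.95), Fcna (0.94) and Plod1 (0.93), Vsig4 to Clec4f (0.95), Colec10 (0.93) and Fabp7 (0.93), and Marco to Naip1 (0.91), Vsig4 (0.91) and Pcolce2 (0.89). Fcna was nearest to Clec4f (0.94), Aspa (0.92) and Srd5a1 (0.91). Cd163 was nearest to Hhip (0.94), Upp2 (0.94) and Cyp2j9 (0.93), none of them a macrophage marker, and Timd4 to Hhip (0.94), Zfp982 (0.93) and Cd59a (0.93).

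With group means removed, over the same 29 libraries, the nearest genes of the C1q, Adgre1 and Cd5l group stayed within it or near it. C1qc had C1qb (0.99), C1qa (0.98) and Tmsb4x (0.97), C1qa had C1qc (0.98), C1qb (0.98) and Ly86 (0.97), Adgre1 had Csf1r (0.97), C1qb (0.96) and C1qa (0.95), and Cd5l had Cfp (0.97), C1qc (0.96) and C1qb (0.95). Marco had Lyz2 (0.89), Cfp (0.88) and Sh3bgrl3 (0.88), and Vsig4 had Slc16a9 (0.87), March1 (0.87) and Cfp (0.87). Clec4f was then nearest to the mitotic genes Ccnb1 (0.86), Smc2 (0.85) and Ckap2l (0.85). Timd4 had Agpat5 (0.86), Orm3 (0.76) and Icam2 (0.75), and Fcna had Mmp19 (0.81), Ttc13 (0.78) and Pnpt1 (0.76). Cd163 had Ipmk (0.71), Thrsp (0.69) and Zfp273 (0.68), the lowest values of the 10.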

How the data were processed

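Poly(A) RNA was sequenced with strand information, per the labels' protocols. The submitters' processing notes list STAR 2.5.1a, RSEM 1.3.0 and GRCm38, and how the authors annotated or filtered genes is not given in the sources used here. They deposited 1 table of CPM with 22187 gene IDs, 29 columns and equal sums. Steps in the deposited CPM gave expected counts, 83.3% to 86.1% of nonzero values being whole within 0.002 counts. Intervals and floors cover counting error only. GENCODE M21 gave 21653 symbols; the 534 IDs without one held 0.138% of counts.

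limma 3.58.1 (R 4.3.3) was run with a variance trend on log2(CPM + 1) of genes that reached 1 CPM in 3 or more of the libraries fitted, with two-sided Benjamini-Hochberg adjusted p under 0.05 over all genes tested. Comparisons between tissues used all 29 libraries, those within a tissue its 16 or 13. The fit was tested on simulated data. No 2 libraries of a group agreed within sampling noise (chi-square per gene of at least 11.7 over 41 pairs). The members and lists were chosen with earlier results of these data known, and 1 gene of a list is not reported here. All 10 members were named with their levels; genotype and diet comparisons named the 2 with the smallest p, beside markers without overlap. From other lists the 2 most positive and 2 most negative genes were named, C1qb was named after its values were seen. Replicate numbers may pair alcohol with HFD in WT liver (deviations of the 3 pairs correlated at 0.34, 0.27 and 0.13), though the labels state no pairing. Only replicate 1 of these was its own best match. Same-numbered IL17RA-/- and WT alcohol livers correlated at 0.41, 0.24, -0.13, -0.16 and -0.0013. Tumours and livers on alcohol that share numbers 4 and 5 correlated at 0.17 and -0.07 in WT and at 0.08 and -0.04 in IL17RA-/-.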

Additional observations from a re-analysis of the deposited data

Results flagged for a closer look

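Of the 30 combinations of a marker with a group of 4 or 5 libraries, 3 held a library far from the others by Dixon's ratio, where chance flags about 1 in 20. In WT alcohol non-tumour liver replicate 1 was the highest for Clec4f, at 297 CPM against 195 to 215 in the other 4, and for Cd5l, at 583 CPM against 311 to 372. In IL17RA-/- alcohol tumours replicate 7 was the highest for Timd4, at 2.18 CPM against 0.161 to 0.499, a value of 7 counts in the shallowest library. No marker was called in a test of a difference between strata.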

How the results depend on the processing

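For Clec4f, Cd163 and Timd4, all 90 alternatives of the tissue comparisons (a smaller pseudocount of 0.1, all genes kept, rescaling by median ratios, fits on other sets of libraries, limma-voom, a replicate block, and libraries left out) gave a lower level in tumours on the same side of the threshold; for the other 7 markers 79 to 87 of 90 did. Being on the same side includes comparisons that were not called and stayed so. Across these tissue comparisons, the main fit called Cd5l, Adgre1 and C1qa only in WT alcohol and in the mean over strata. It called C1qc only in that mean. For these markers, agreement elsewhere meant staying not called. The mean over strata called 8 to 10 members, with a median from -1.94 to -1.71, where 27% of genes tested were called lower in the main fit. Leaving out IL17RA-/- alcohol livers 2 and 4, which were picked for their low marker values, raised the members called in that stratum to 10. It moved the medians of IL17RA-/- against WT in alcohol liver and of alcohol against HFD in IL17RA-/- liver to 0.13 and 0.61. C1qa in the latter comparison moved to 0.31. The 6 libraries of IL17RA-/- HFD alone called 10 members. Without the 4 doubted libraries C1qa in WT HFD stood at 0.0097. Leaving out 1 library at a time gave 0 to 2 members called for alcohol against HFD in WT tumours, a median of -0.15 to 0.53 for IL17RA-/- against WT in alcohol tumours, and in the tissue comparison of IL17RA-/- alcohol -0.87 to 0.0082 for Cd5l and -0.63 to 0.0635 for C1qc. With Csf1r as the only reference C1qa and C1qc stood at 0.0595 and 0.0529.

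With the replicate number as a block, the members called in WT alcohol went from 9 to 6 and stayed 6 in IL17RA-/- alcohol. Of 13586 genes tested, 3885 and 3789 were called in either direction in these strata with the block. Without it, 2254 were higher and 2602 lower in WT alcohol, and 2961 higher and 2465 lower in IL17RA-/- alcohol. In the 8 comparisons of genotype and diet 0 members were called with the block, and the Cd163 difference by diet in WT liver was 1.46. Genes called moved most in IL17RA-/- against WT tumours on HFD (213, and 616 rescaled, 5 from those groups alone, 1564 from all libraries, 62 blocked, 2 without the doubted libraries, 0 to 1174 leaving out 1 library), in WT HFD by tissue (2072, and 413 from those groups alone, 1016 to 2769 leaving out 1), in WT tumours by diet (1, and 187 from all libraries, 0 to 56 leaving out 1), in the difference of tissue effects between genotype labels (0, and 0 to 68 leaving out 1) and relative to macrophage genes (5261, and 9728 with Csf1r, 8905 without the low livers). Timd4 in tumours, at 1 to 11 counts, is limited by depth.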
